A study of Homo sapiens with 6 samples.

Results

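Binding of the estrogen receptor mutant K303R was compared with that of wild-type (WT) receptor in cells given doxycycline and no added estradiol (E2). The members were all regions that the authors' peak lists gave for these 2 libraries on chromosomes 1 to 22, joined where they overlapped by at least 1 bp. The K303R list held 102848 regions and the WT list 121641, and together they made 136433 joined regions, of 169433 obtained when the lists of all 6 libraries of the study were joined.

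The cells were of MDA-MB-453, an established line from a human breast cancer that carries androgen receptor and lacks functional ERα, and the receptors were introduced into it under doxycycline control. K303R and WT cells were both grown for 2 days in medium with 10% serum and then for 2 days with 2 µg/mL doxycycline. Chromatin from 2 plates was precipitated with an antibody to ERα and sequenced, which gave 1 library for K303R and 1 for WT. A K303R and a WT library with 1 nM E2 beside the doxycycline served to look at the same regions again, and the Y537S libraries, from cells with a further receptor mutant, are given only as context. The labels do not say whether a line was derived from a single clone, how much receptor each line made, or whether the serum was stripped of hormone. Receptor and cell line therefore cannot be told apart, and every comparison below sets 1 library against 1 library, with no replicate check.

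ERα is a nuclear receptor that, with estrogen bound, sits as a dimer on estrogen response elements, which are inverted repeats of a short unit separated by a spacer. Much of its binding lies in enhancers far from promoters, at sites opened by factors such as FOXA1 and GATA3. The lysine changed in K303R lies in the hinge that links the DNA-binding and ligand-binding domains, next to residues that are acetylated, and the substitution was first described in breast lesions.

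Promoter windows of 300 bp, which run from 250 bases before a gene's start to 50 bases after it, were available from RefSeq (GRCh38.p14) for all chromosomes used except 8. Of 33725 such windows, 529 held the summit of a region that had enough fragments to be compared. The full element, spelled GGTCANNNTGACC, was in 4 of these 529 windows and in 20 of all 33725. A pair of these rare matches follows, to show the element, which is in capitals. Both come from promoters of long noncoding RNA genes: LINC02466 at chr4:129771514-129771554 on the minus strand and LINC02350 at chr12:126425913-126425953 on the plus strand.
LINC02466: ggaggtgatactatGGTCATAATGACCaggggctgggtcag
LINC02350: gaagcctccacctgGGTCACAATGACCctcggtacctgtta
The summit at LINC02466 had 154 fragments in K303R and 184 in WT, and the one at LINC02350 had 63 in K303R and 119 in WT. Neither was called different by the rule given below.

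The repeat unit GGTCA, read on both strands and also counted where it is part of a full element, was in 383 of the 529 windows with a summit (72.4%) and in 37.4% of all windows. The next sequences are the 250 bases before the start of 3 protein-coding genes, with repeat units in capitals. Among protein-coding genes these are the promoters with the clearest differences between the libraries, 2 in one direction and 1 in the other: RBP4 and DCAF10 were higher in K303R and EPB41L2 was lower. RBP4, which encodes the plasma carrier of retinol, lies at chr10:93601514-93601763 on the minus strand, DCAF10 at chr9:37800547-37800796 on the plus strand, and EPB41L2, which encodes a protein of the membrane skeleton, at chr6:131000730-131000979 on the minus strand.
RBP4: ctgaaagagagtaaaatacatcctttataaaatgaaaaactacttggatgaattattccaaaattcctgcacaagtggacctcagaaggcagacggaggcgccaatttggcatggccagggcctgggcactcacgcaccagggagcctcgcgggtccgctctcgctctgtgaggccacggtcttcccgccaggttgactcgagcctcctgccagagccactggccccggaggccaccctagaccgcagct
DCAF10: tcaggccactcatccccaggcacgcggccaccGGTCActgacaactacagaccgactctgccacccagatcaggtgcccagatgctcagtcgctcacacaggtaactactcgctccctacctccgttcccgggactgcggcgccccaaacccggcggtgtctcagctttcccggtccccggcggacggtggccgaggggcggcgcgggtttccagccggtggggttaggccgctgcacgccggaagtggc
EPB41L2: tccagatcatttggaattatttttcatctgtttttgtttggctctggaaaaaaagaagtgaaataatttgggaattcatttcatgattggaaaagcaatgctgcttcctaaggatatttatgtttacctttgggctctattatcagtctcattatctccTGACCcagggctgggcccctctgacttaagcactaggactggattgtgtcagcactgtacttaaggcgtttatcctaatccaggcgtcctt
The RBP4 stretch holds 0 repeat units, and its summit lay 43 bases after the start, outside the bases shown. The RBP4 summit had 171 fragments in K303R and 82 in WT (204 and 105 with E2), and the DCAF10 summit had 96 in K303R and 54 in WT (60 and 40 with E2). The EPB41L2 summit had 15 fragments in K303R and 91 in WT (12 and 91 with E2). The direction at each of these promoters was the same in the libraries with E2.

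The measure used throughout is the number of DNA fragments stacked at the summit of a region. The authors' lists give a fold over the local background and a −log10 p for each peak, and these 2 values fix the number of fragments and the local background. Solving for them returned numbers within 0.01 of a whole number in 100% of the regions of each library, with the deposited p matched to within 0.01%. Summits held 6 to 437 fragments in K303R and 6 to 435 in WT, with medians of 24 and 27. The lowest local background, which tracks the depth of a library, was 1.19 fragments in K303R and 1.21 in WT, so the 2 libraries had nearly the same depth by this measure. The total number of reads is not known from the lists.

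Most regions that carried many fragments were in both lists. Of the 136433 joined regions, 86256 (63.2%) were in both, 15575 (11.4%) were in the K303R list only and 34602 (25.4%) were in the WT list only. Counted within each list, 84.9% of K303R regions (95% Wilson interval, 84.6 to 85.1) overlapped a WT region, and 71.6% of WT regions (71.3 to 71.8) overlapped a K303R region. All intervals given here are 95% intervals and cover counting error only.

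The regions found in a single list were weak. Their median was 12 fragments in the K303R list and 14 in the WT list, against 42 for regions in both lists. Only 148 K303R-only regions and 696 WT-only regions reached 50 fragments. Ranked by −log10 p, 0 of the 20000 strongest K303R regions lacked a WT partner, and 14 of the 20000 strongest WT regions lacked a K303R partner. Of the weakest 2848 K303R regions, 54.9% had no WT partner. List membership therefore divided mainly the weak end of both lists.

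The libraries with E2, which share no library with the 2 compared, gave a second look at these weak regions. Of the K303R-only regions, 39.3% were again in the K303R list with E2 (38.6 to 40.1) and 26.4% were in the WT list with E2 (25.7 to 27.1). Of the WT-only regions, 29.2% were in the K303R list with E2 (28.7 to 29.7) and 57.3% were in the WT list with E2 (56.8 to 57.8). Each set was thus found more often in the list of its own line, and 50.2% of the K303R-only and 36.2% of the WT-only regions were in neither list with E2. Within 1 kb of a gene end lay 11.3% of the K303R-only regions (10.8 to 11.8) and 5.51% of the WT-only regions (5.27 to 5.75). Surroundings with at most 2 protein-coding genes within 500 kb held 20.5% of the K303R-only (19.8 to 21.1) and 33.3% of the WT-only regions (32.9 to 33.8).

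Among the 5 K303R-only regions with the highest −log10 p, the first lay in EIF4G3, which encodes a translation initiation factor, at chr1:21165018-21165596, with 54 fragments in K303R and 63 in K303R with E2 and no region in either WT list. The others lay 1279936 bp from EYS (83 fragments), in TMEM184B (50), 298365 bp from CYRIA (38) and in the noncoding gene DGAT2-DT (40). All 5 were also in the K303R list with E2, and 2 of the 5 were in the WT list with E2, with 28 fragments near EYS and 16 in TMEM184B.

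The 5 WT-only regions with the highest −log10 p had up to 142 fragments in WT. This rank is not one of fragments: the most in any K303R-only region was 159, and in any WT-only region 210. The one in the noncoding gene LINC02141, at chr16:60044401-60045069, had no K303R region and 142 fragments in WT; with E2 it had 11 in K303R and 172 in WT, and Y537S had 174 without and 200 with E2. Others lay in WIPF1, a regulator of actin assembly (93 fragments), LINC02476 (92) and PTP4A1, which encodes a phosphatase (80). All 5 were in the WT list with E2, and 4 of the 5 were in the K303R list with E2, with 10 to 17 fragments. K303R thus had either no listed region or few fragments at these sites, and WT had a listed region at each of them without and with E2.

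Fragment numbers were compared at well-covered regions, meaning those in both lists with a mean of at least 50 summit fragments over K303R and WT. There were 30992 of them. The median region had 78 fragments in K303R and 105 in WT, and the median of the ratio K303R over WT was 0.765. With E2 the median ratio was 0.921. Ratios below are centred on these medians, so a ratio of 1 means the typical difference between the libraries, and a region is called when its centred ratio passes 1.5-fold and its exact counting interval at an error level of 0.001 excludes 1.

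**Figure D1:**
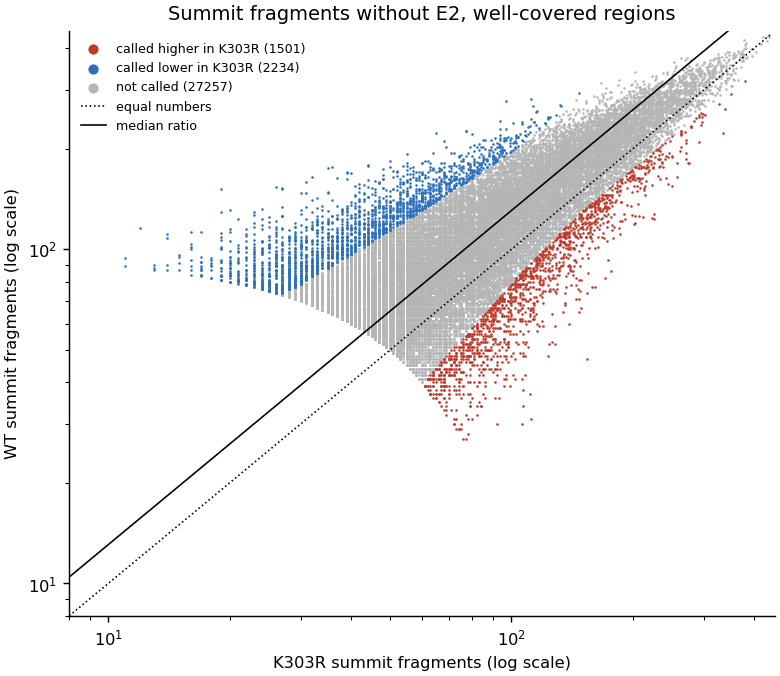
Summit fragments in K303R (horizontal, log scale) and WT (vertical, log scale) without E2 at the 30992 well-covered regions, 1 point a region, with lines for equal numbers and for the median ratio of 0.765. Most regions lie above the line of equal numbers, and the 1501 higher and 2234 lower regions flank the median line; the lower left edge is set by the minimum mean of 50 fragments.

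By this rule 1501 regions were higher in K303R (4.84% of the 30992 compared) and 2234 were lower (7.21%). The higher regions had a median of 108 fragments in K303R and 73 in WT, a median centred ratio of 1.88. The lower regions had a median of 40 fragments in K303R and 113 in WT, a median centred ratio of 0.479. The local background differed in the same directions. Its median log2 ratio K303R over WT, not centred, was 0.41 at higher, −1.11 at lower and −0.27 at all compared regions. This background includes fragments of the region itself, and its part in the calls was not tested. The share of calls that were higher, 40.2%, depended on the centring. It was 21.5% when ratios were scaled by the median local background of the compared regions (884 higher, 3232 lower) and 3.80% when they were scaled by the lowest local background (274 higher, 6933 lower). Those scalings placed the median region at log2 −0.11 and −0.37, and all directions below are relative to the median region.

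The same regions moved the same way in the libraries with E2. Of the 1493 higher regions with a value there, 98.0% had a centred ratio above 1, and of the 2224 lower regions 98.7% had a ratio below 1, against 15439 of all 30884 regions above 1. Of the higher regions 703 were also called higher with E2, where 5.40% of all regions were, and 0 were called lower. Of the lower regions 1334 were also called lower with E2, where 8.81% of all regions were, and 0 were called higher. The median ratio with E2 was 1.61 for the higher and 0.539 for the lower regions. Over the 30884 regions the log2 ratios with and without E2 had a Pearson r of 0.76 and a Spearman rho of 0.74, as a description of regions that share the 2 cell lines. Regions called without E2 thus nearly all kept their side with E2, but the called sets were not the same. Of the 1669 regions called higher with E2, 966 were not called without it. Of the 2721 called lower with E2, 1387 were not called without it.

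**Figure D2:**
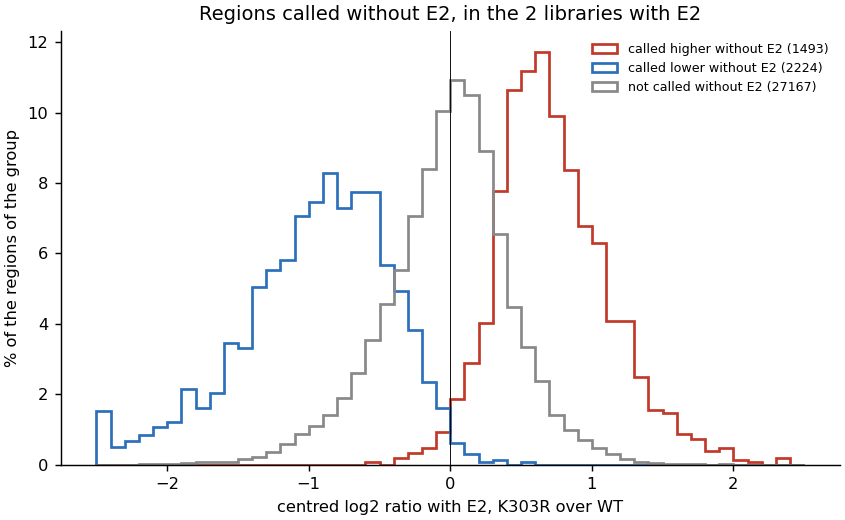
Centred log2 ratio K303R over WT in the libraries with E2 (horizontal; the end bins hold values beyond them) for regions called higher, called lower and not called without E2, as a percentage of each group (vertical). The higher regions have a median ratio of 1.61 and the lower regions one of 0.539, with little overlap at 1.

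The clearest higher regions are named by the bound of that interval nearest to 1, and by the gene they lie in or the nearest one. These 12 regions had 92 to 154 fragments in K303R and 30 to 60 in WT. With E2 they had 67 to 207 in K303R and 22 to 83 in WT. The regions were chosen by their values without E2, so the gap between the groups there reflects the choice. With E2, 10 of the 12 were also called higher, beside 5.40% of all regions.

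The first lay 314830 bp from TSNARE1 at chr8:141896902-141897653, with 154 fragments in K303R and 47 in WT (165 and 59 with E2) and a ratio of 4.28 (3.07 to 6.07). The second, inside the noncoding gene LINC00824 at chr8:128428045-128428595, had 112 fragments in K303R and 31 in WT (99 and 32 with E2). Its ratio of 4.72 (3.15 to 7.27) was the highest of all 30992 regions, and it overlapped no Y537S region.

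A region at chr1:205655492-205656067, 2009 bp from SLC45A3, had 106 fragments in K303R and 30 in WT (91 and 22 with E2), a ratio of 4.62 (3.05 to 7.18). SLC45A3, also called prostein, is a known target of the androgen receptor in prostate. The region inside GOT1, which encodes the cytosolic aspartate aminotransferase, at chr10:99427558-99428048 had 107 fragments in K303R and 34 in WT, with a ratio of 4.11 (2.77 to 6.24).

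In TCF7L2, a transcription factor of the WNT pathway, a region at chr10:112951159-112951601 had 111 fragments in K303R and 37 in WT, a ratio of 3.92 (2.68 to 5.85). With E2 it had 97 in K303R and 83 in WT, a ratio of 1.27 (0.937 to 1.72). The region in SH3RF3, at chr2:109170492-109171017, behaved alike, with 108 fragments in K303R and 42 in WT, and with E2 67 in K303R and 59 in WT. These are the 2 of the 12 that were not called with E2.

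The remaining 6 higher regions had ratios of 3.03 to 4.01. They lay in TONSL, a protein of replication fork repair (128 fragments in K303R and 52 in WT), and in TEX2 (106 and 41), and outside genes near LOC124905027 (92 and 30), TMEM92 (107 and 38), the potassium channel gene KCNU1 (123 and 48) and the ubiquitin ligase gene RNF19A (139 and 60). Of the 12, 5 were on chromosome 8. At 10 of the 12 a Y537S region was found without E2, with 10 to 171 fragments.

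The 12 clearest lower regions had 11 to 27 fragments in K303R and 89 to 154 in WT. With E2 they had 17 to 62 in K303R and 78 to 153 in WT, and all 12 were called lower again, beside 8.81% of all regions. Y537S without E2 had 45 to 161 fragments at the same places. The regions were chosen for few fragments in K303R beside WT, so K303R lying below WT without E2 follows from the choice. K303R was also below Y537S at each of these regions without E2, which uses the same chosen K303R values.

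The lowest ratio of all 30992 regions, 0.135 (0.0679 to 0.245), was at chr2:76902187-76902762 inside LRRTM4, which encodes a synaptic adhesion protein, with 12 fragments in K303R and 116 in WT (48 and 125 with E2). CTNNA2, which encodes the neuronal α-catenin, was named 3 times. The region inside it at chr2:80472938-80473453 had 19 fragments in K303R and 152 in WT (55 and 153 with E2), a ratio of 0.163 (0.0957 to 0.264). Its log2 ratio of −2.61 was −1.67 when ratios were centred within windows of 5 Mb. The other CTNNA2 regions, 12175 and 240358 bp outside the gene, had 14 and 17 fragments in K303R and 108 and 113 in WT; with centring in such windows the farther one had −1.41 in place of −2.35.

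Other lower regions lay inside the noncoding genes LINC01470 (14 fragments in K303R and 111 in WT), LOC105377561 (19 and 129; −1.35 in place of −2.38 with centring in windows) and LOC107984824 (11 and 89), and inside CADPS, a gene of vesicle release in neurons (16 and 113). The rest were 101934 bp from the potassium channel gene KCND2 (11 and 94), 272377 bp from ZWINT (20 and 131), 315494 bp from CLNK (26 and 154) and 319702 bp from CCDC85A (27 and 153). Of the 12, 11 had at most 2 protein-coding genes within 500 kb and 5 were on chromosome 2. Of the 12 named higher regions, 3 had so few genes around them.

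**Figure D3:**
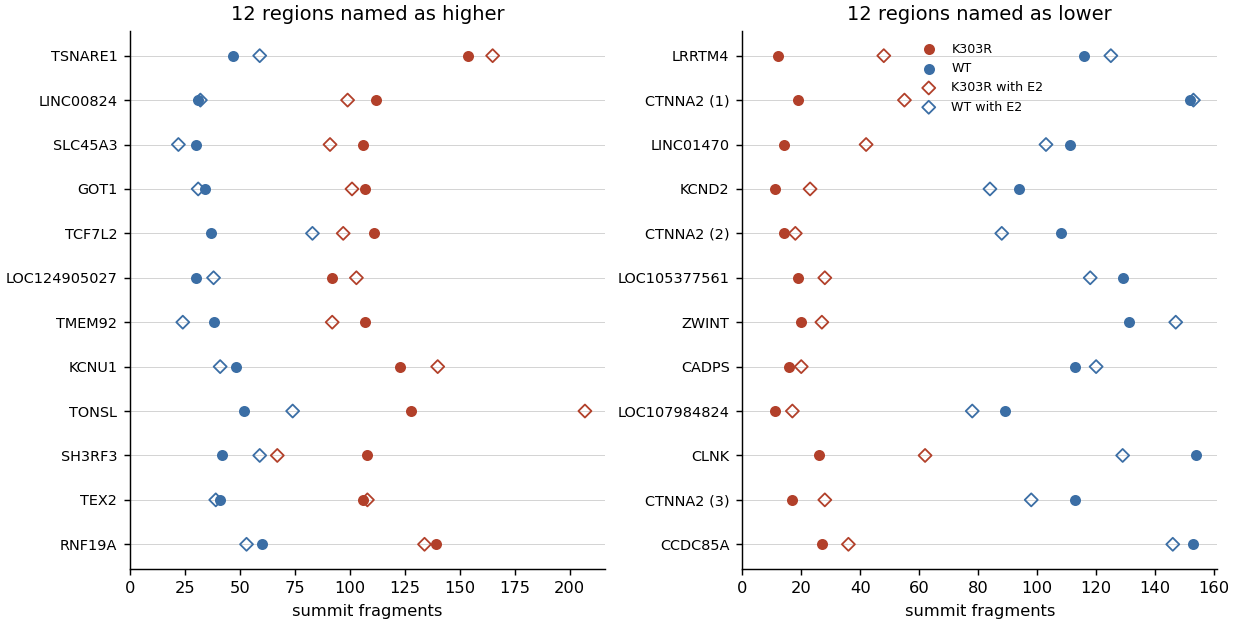
Summit fragments (horizontal) of the 12 higher (left) and 12 lower (right) named regions in K303R and WT, without E2 (filled circles) and with E2 (open diamonds); each row is a region, labelled with the gene it lies in or nearest to, and CTNNA2 regions are numbered in order of their rank. Without E2 the K303R values of 92 to 154 lie above the WT values of 30 to 60 on the left, and those of 11 to 27 lie below the WT values of 89 to 154 on the right. The regions were chosen for these differences without E2.

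Higher and lower regions lay in different surroundings. The number of protein-coding genes whose midpoint lay within 500 kb had a median of 10 for higher regions, 3 for lower regions and 7 for regions not called. At most 2 such genes were found around 9.46% of higher regions (8.08 to 11.05), 39.8% of lower regions (37.8 to 41.8) and 17.3% of regions not called (16.8 to 17.7). Within 1 kb of a gene end lay 10.5% of higher regions (9.01 to 12.1), 1.16% of lower regions (0.795 to 1.70) and 6.84% of regions not called (6.55 to 7.14). Regions inside protein-coding genes lay in spans with a median of 86.8 kb when higher, 238 kb when lower and 120 kb when not called.

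The ratio followed gene density in steps. With 0 genes within 500 kb (1372 regions) the median log2 ratio was −0.36, and 2.55% of regions were higher and 21.9% lower. With 6 to 10 genes (8708 regions) the median was 0.02, with 4.90% higher and 5.72% lower. With more than 40 genes (579 regions) it was 0.27, with 11.7% higher and 0.518% lower. The libraries with E2 gave medians of −0.40 and 0.28 at these ends.

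From 0 to more than 40 genes the median summit had 62 to 90 fragments in K303R and 107 to 98 in WT without E2, and 70 to 120 in K303R and 105 to 102 in WT with E2. In Y537S the medians at the same ends were 89 and 122 without E2. K303R and Y537S thus had more fragments with more than 40 genes than with 0, and WT slightly fewer. For WT this was a feature of the end classes. With 21 to 40 genes (3270 regions) its median was 104 without E2 and 108 with E2. The local background of the regions moved with the ratio. Its median ratio K303R over WT was 0.651 with 0 genes and 0.986 with more than 40, and the ratio of summit fragments over local background was flat, with medians of −0.01 to 0.00 on the log2 scale. This background includes fragments of the region and its neighbours: in WT its median was 4.32 at regions with a mean of 50 to 75 fragments and 15.7 at those with 200 or more. Its part in the result was not tested.

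**Figure D4:**
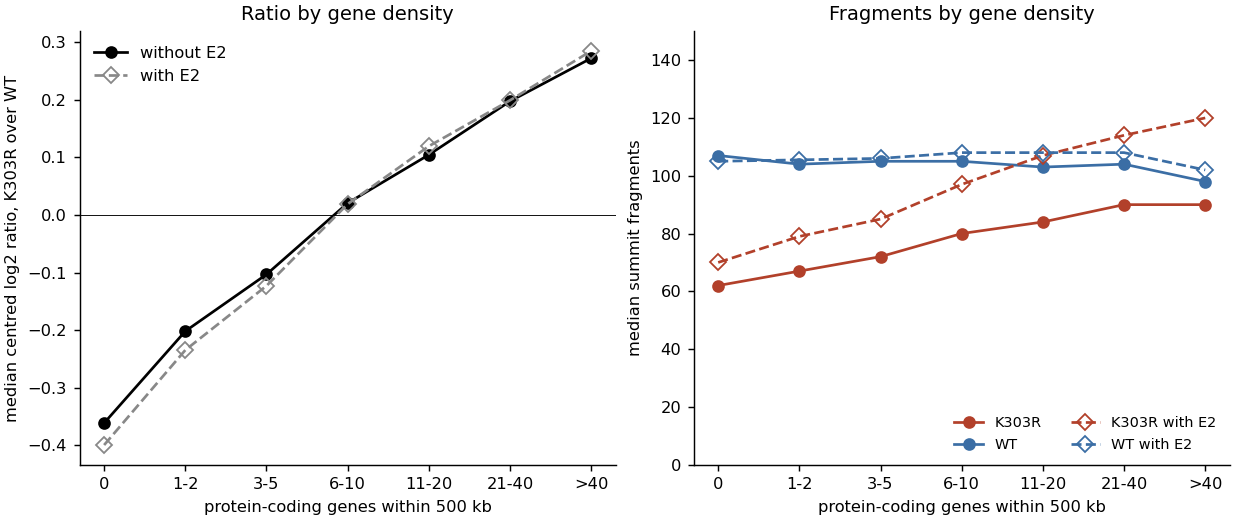
Left, median centred log2 ratio K303R over WT without E2 (filled) and with E2 (open) by the number of protein-coding genes within 500 kb; right, median summit fragments of each library in the same classes. The ratio climbs at every step, between −0.36 and 0.27 without E2; K303R has 62 to 90 fragments along the scale and WT 107 to 98.

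The gradient was present in each class of strength and on each chromosome that could be examined. Regions with more than 20 genes around them are called dense here, and those with at most 2 sparse. Among regions with a mean of 50 to 75 fragments the median log2 ratio was 0.24 in dense and −0.40 in sparse surroundings, and among those of 200 fragments or more it was 0.24 in dense and 0.11 in sparse surroundings. Dense regions were above sparse ones on 19 of the 19 chromosomes with at least 20 regions of each kind, by 0.06 to 0.52 with a median of 0.40, and on 19 of 19 with E2. The smallest of these differences, 0.06, was on chromosome 21, where it was 0.45 with E2. Over all chromosomes the difference was 0.45.

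Gene length and the distance to gene ends showed related steps. Inside genes of up to 20 kb the median log2 ratio was 0.20, and inside genes longer than 500 kb it was −0.17, with 3.08% of regions higher and 12.4% lower. Within 1 kb of a gene end the median was 0.21 and beyond 100 kb it was −0.20, with 2.85% higher and 13.8% lower. Long genes and few neighbours go together in the genome, and these measures were not separated here.

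Several long genes held many lower regions. Calls were counted for the 281 genes with at least 2 called regions inside them. In 137 all calls were lower, in 93 all were higher and in 51 they were mixed. Among all compared regions 7.21% were lower and 4.84% higher. Inside genes longer than 500 kb 12.4% were lower and 3.08% higher. The genes named here were picked for their many calls. GABRG3, a GABA receptor subunit gene of 571 kb on chromosome 15, had 14 lower and 0 higher calls among 26 regions, with a median log2 ratio of −0.78 (−0.53 with E2). CTNNA2 had 6 lower calls among 11 regions, and NRXN3, which encodes a presynaptic adhesion protein, had 6 among 13. EYS, a photoreceptor gene of 1987 kb on chromosome 6, had 5 of 5.

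Further genes with 4 or 5 lower and 0 higher calls included LPP, RGS6, DLG2, DPH6, LIN7A, OPCML, PTPRT, RGS7, RPS6KC1 and SUGCT. DPH6, a gene of diphthamide synthesis, was lower at 4 of 4 regions, with a median log2 ratio of −1.44 (−1.23 with E2). Every lower call in these genes and in GABRG3, CTNNA2, NRXN3 and EYS lay below 1 with E2 as well.

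Other genes, picked in the same way, held several higher regions, beside 4.84% higher among all compared regions. TSNARE1 had 6 higher and 0 lower calls among 20 regions, with a median log2 ratio of 0.52 (0.42 with E2). NDRG1, a stress-responsive and androgen-responsive gene of 60.1 kb, had 5 of 7 regions higher, with a median of 0.91 (0.47 with E2). GSE1 had 5 higher calls among 29 regions. IFT122, a gene of transport in cilia, had 4 among 7 (median 0.96), SLC45A4 4 among 8 and the histone demethylase gene KDM4B 4 among 9. The cofactor gene ZMIZ1, with 4 among 24 regions, had a median of 0.54 (0.63 with E2). TSNARE1, NDRG1, SLC45A4 and ZFAT, with 4 higher calls among 20 regions, are all on chromosome 8, where 13.5% of regions were higher. With E2, 5 of the 6 higher regions in TSNARE1 lay above 1 and 0 below it, and in KDM4B 3 of the 4 lay above 1 and 1 below it.

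Chromosomes differed in the same way with and without E2, and all 22 had a median of the same sign in both. Chromosome 19 had the highest median log2 ratio, 0.36 (0.33 with E2), with 14.4% of its 714 regions higher and 0.980% lower. Chromosome 8 followed with 0.18 (0.15 with E2), and 13.5% of its 1690 regions were higher and 4.26% lower. Chromosomes 16, 17, 10 and 22 had medians of 0.11 to 0.14. Chromosomes 8 and 19 held 7.76% of the compared regions and 22.1% of the higher ones.

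At the low end, chromosome 15 had a median of −0.18 (−0.22 with E2), with 2.10% higher and 13.2% lower, and chromosome 4 had −0.17 (−0.20 with E2), with 1.97% higher and 9.41% lower. Chromosome 13 had −0.14 in both pairs of libraries. The local background again moved with these values. Its ratio K303R over WT was 1.08 on chromosome 19 and 0.975 on chromosome 8, against 0.725 on chromosome 15 and 0.739 on chromosome 4. When summit fragments were divided by the local background, the median log2 ratio was −0.0025 on chromosome 19 and −0.05 on chromosome 8, so the chromosome order without that division is not seen with it.

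**Figure D5:**
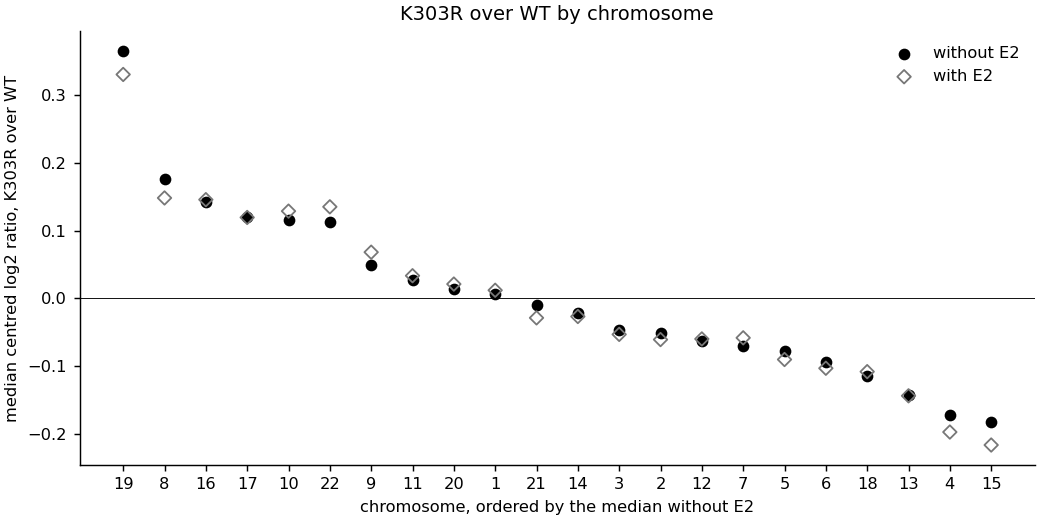
Median centred log2 ratio K303R over WT (vertical) of the well-covered regions of each chromosome (horizontal, ordered by the value without E2), without E2 (filled circles) and with E2 (open diamonds). Chromosome 19 stands highest at 0.36 and chromosome 15 lowest at −0.18, and the open symbols follow the filled ones.

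Stretches of 5 Mb with at least 20 regions showed the pattern at a finer scale. Of 497 such windows, 64 had a median log2 ratio below −0.3 and 15 one above 0.3, and each of them had the same sign with E2. The low windows had a median of 14.5 protein-coding genes and the high windows 123, beside 26 for all 497 windows. The lowest window was at 175 to 180 Mb of chromosome 4, with a median log2 ratio of −1.02 (−1.01 with E2), a median of 41 fragments in K303R and 98.5 in WT, and 10 of 20 regions lower. The window at 80 to 85 Mb of chromosome 2, which holds part of CTNNA2, followed with −0.94 and 11 of 20 regions lower. The window at 25 to 30 Mb of chromosome 15, which holds GABRG3, had −0.62 (−0.33 with E2) and 22 of 55 regions lower.

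The highest window was at 0 to 5 Mb of chromosome 19, with a median log2 ratio of 0.48 (0.44 with E2), a median of 113 fragments in K303R and 95 in WT, and 32 of 113 regions higher and 0 lower. The window at 140 to 145 Mb of chromosome 8 had 0.47 (0.48 with E2), with 65 of 208 regions higher and 0 lower. Of the 15 high windows 9 were on chromosome 19 and 3 on chromosome 8, and of the 64 low windows 9 were on chromosome 4, 9 on chromosome 15 and 7 on chromosome 2.

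The ratio also rose with the strength of a region. Its median log2 was −0.09 at a mean of 50 to 75 fragments, −0.01 at 100 to 150 and 0.18 at 200 or more, where 3.003% of regions were higher and 0.117% lower. The 10 regions with the most fragments, 8 of them on chromosome 17, had 378 to 437 in K303R and 390 to 435 in WT. Their uncentred ratio was 0.889 to 1.04, which means nearly equal numbers. The highest summit of each of the 6 libraries held 403 to 441 fragments, so these sites lay at the top of the scale. How this bears on the ratio at these 10 regions was not tested. The first lay in HID1, with 437 in K303R and 434 in WT, and the second in NHERF1, a scaffold protein gene responsive to estrogen, with 433 and 435.

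Of the 40 genes listed as estrogen targets, 36 had a well-covered region within 25 kb. Their 190 regions had a median log2 ratio of 0.14, and 11 were higher (5.79%, beside 4.84% of all regions) and 6 lower (3.16%, beside 7.21%). With E2, 4.79% of these regions were higher (5.40% of all) and 5.32% lower (8.81% of all). Regions of every list lay in or within 25 kb of a gene, where shares differ from those of all regions. Within 1 kb of a gene end 7.67% were higher and 1.27% lower, and at 5 to 25 kb 5.47% and 4.58%. With 21 to 40 genes within 500 kb they were 8.62% and 1.77%. No list was compared with regions matched for this. Of the 11 higher regions near estrogen targets, 2 were called higher with E2, both near XBP1. All 6 lower regions near estrogen targets were called lower with E2. At the region with the most fragments near each of the 36 genes, 32 were not called, 3 were higher and 1 was lower.

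At GREB1, a cofactor gene and a classical target, that region had 279 fragments in K303R and 307 in WT, a ratio of 1.19 (1.01 to 1.40). At PGR, the progesterone receptor gene, it had 310 in K303R and 327 in WT, a ratio of 1.24 (1.06 to 1.45). At TFF1, the trefoil factor gene, the strongest region lay in its neighbour TMPRSS3 and had 227 in K303R and 238 in WT, a ratio of 1.25 (1.03 to 1.501). At CCND1, which encodes cyclin D1, it had 156 in K303R and 162 in WT, a ratio of 1.26 (1.00 to 1.58). None of these 4 passed the 1.5-fold limit. Strong regions as a whole also had centred ratios above 1. The median was 1.13 at a mean of 200 fragments or more, the class of GREB1, PGR and TFF1. It was 1.05 at 150 to 200, the class of CCND1.

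The estrogen targets with a higher region were 9. XBP1, a transcription factor of the secretory pathway, had 2 outside the gene, 19199 and 22521 bp away, with 157 and 153 fragments in K303R and 109 and 115 in WT. RARA, a retinoic acid receptor, had 2, with 145 fragments in K303R and 92 in WT at the clearer one (ratio 2.06, 1.58 to 2.70). IGFBP4, which binds insulin-like growth factors, had 1 with 272 in K303R and 209 in WT (ratio 1.70, 1.42 to 2.05). The region inside MYB, a proto-oncogene, had 78 in K303R and 40 in WT (ratio 2.55, 1.72 to 3.83). FKBP4, SLC22A5, NHERF1, TIPARP and SIAH2 each had 1, with ratios of 1.55 to 1.75.

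Lower regions lay near 5 estrogen targets. ELOVL2, a fatty acid elongase gene, had 97 fragments in K303R and 230 in WT at its strongest region (ratio 0.551, 0.430 to 0.702), and 106 and 209 with E2. TPD52L1 had 2, with 54 and 28 fragments in K303R and 131 and 86 in WT. FHL2, a LIM protein gene, had 42 in K303R and 127 in WT, and BCL2, which inhibits apoptosis, had 51 in K303R and 122 in WT. SIAH2, a ubiquitin ligase gene, had a lower region 18193 bp away, with 31 in K303R and 105 in WT, beside its higher one.

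Near genes of the androgen receptor and of apocrine cells, 8 of 69 regions were higher (11.6%, beside 4.84% of all regions) and 3 lower (4.35%, beside 7.21%), with a median log2 ratio of 0.16. Of the higher ones, 6 lay within 25 kb of NDRG1, on chromosome 8; the one at chr8:133292713-133293226 had 87 fragments in K303R and 45 in WT (ratio 2.53, 1.74 to 3.71). APOD, which encodes apolipoprotein D, had 97 in K303R and 42 in WT (ratio 3.02, 2.08 to 4.44) at a region 7417 bp away, and the eighth was the SLC45A3 region. STEAP4, a metalloreductase gene, had 43 in K303R and 147 in WT at its strongest region (ratio 0.382, 0.266 to 0.540), with 44 and 148 with E2. HOMER2 held 1 lower region, with 28 in K303R and 80 in WT.

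Near luminal epithelial genes and pioneer factors 10 of 80 regions were higher (12.5%, beside 4.84% of all regions) and 1 lower (1.25%, beside 7.21%), and the median log2 ratio was 0.28. SPDEF, an ETS factor of luminal cells, had 3, with 87 to 124 fragments in K303R and 50 to 75 in WT. GRHL2, a grainyhead factor, had 2 and ESRP1, a splicing factor of epithelial cells, had 1, all on chromosome 8. MLPH, KRT8, TFAP2A and TFAP2C had 1 each; the TFAP2C region had 159 fragments in K303R and 128 in WT, but 146 in K303R and 162 in WT with E2. The lower region was 18540 bp from FOXA1, the pioneer factor on which much ERα binding depends, with 64 in K303R and 141 in WT (ratio 0.593, 0.434 to 0.803) and 66 and 126 with E2.

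Near receptor tyrosine kinase and PI3K genes 10 of 61 regions were higher (16.4%, beside 4.84% of all regions) and 4 lower (6.56%, near the 7.21% of all regions), with a median log2 ratio of 0.31. The window around ERBB2, which encodes HER2 and adjoins GRB7, held 5 of the higher regions. One of the pair inside ERBB2 had 138 fragments in K303R and 97 in WT (ratio 1.86, 1.42 to 2.44). ERBB4, INSR, FGFR4, AKT1 and AKT2 had 1 each, with ratios of 1.70 to 2.32. EGFR held 3 of the lower regions, with 36, 49 and 34 fragments in K303R and 106, 133 and 97 in WT. With E2 they had 87, 118 and 83 in K303R and 113, 149 and 124 in WT, and none was called. The fourth lay in RHBDD1, within 25 kb of IRS1, which encodes a docking protein of the insulin receptor, with 81 in K303R and 184 in WT.

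Receptor coregulators and enzymes that modify the hinge had 1 of 66 regions higher (1.52%) and 2 lower (3.03%), in the coactivator gene NCOA1 (36 in K303R and 103 in WT) and in PRKACB, a catalytic subunit of protein kinase A (27 and 86). Their median log2 ratio was 0.11. Basal and mesenchymal genes had 3 of 34 higher (8.82%) and 2 lower (5.88%), with a median of 0.23. The higher ones lay in FN1 (81 in K303R and 47 in WT), in CDH3 (82 and 54) and 13824 bp from TAGLN (115 and 94). Their ratios were 2.25, 1.98 and 1.60. The lower ones lay 6312 bp from SPARC (68 and 145, ratio 0.613) and 8234 bp from CDH2, the N-cadherin gene. The CDH2 region, the clearest of these, had 15 in K303R and 87 in WT (ratio 0.225, 0.121 to 0.392). Neuronal genes had 3 of 42 higher (7.14%) and 2 lower (4.76%), with a median of 0.14. These stand beside 4.84% higher and 7.21% lower among all regions.

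Across the 7 lists 46 higher regions were counted once each, and 45 had a ratio above 1 with E2, with 22 of them called there. All 20 lower regions had a ratio below 1 with E2, with 9 of them called. The medians of all 7 lists were above 0 with the centring used and all below 0 when ratios were scaled by the lowest local background, and that of the coregulator list was −0.00014 when they were scaled by the median local background.

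Promoters were a small part of the comparison. Of the 529 promoter windows with a summit, 24 regions were higher (4.54%, near the 4.84% of all regions) and 11 lower (2.08%, beside 7.21%), and the median log2 ratio of the 529 was 0.18. The windows had a median GC content of 60.5% when higher, 45.7% when lower and 62.7% for all with a summit, beside 58.7% for all promoters. Below 50% GC the median log2 ratio was −0.00084, with 2 of 89 regions higher and 8 lower. Between 60% and 70% it was 0.25, with 11 of 150 higher and 0 lower. Above 70% it was 0.20, with 2 of 163 higher and 0 lower, so it did not rise throughout with GC.

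Other motifs in these windows, each searched on both strands, gave the following shares. The forkhead letters TGTTTAC were in 4.73% of windows with a summit and 3.45% of all, those of AP-1 (TGANTCA) in 13.4% and 7.67%, and those of AP-2 (GCCNNNGGC) in 33.3% and 23.3%. The GATA letters AGATAA were in 5.67% and 10.4%. A 13-base match to the estrogen response element with at least 8 of its 10 fixed bases was in 38.2% of windows with a summit and 10.3% of all. It was in 8 of the 24 higher and 5 of the 11 lower windows, numbers too small to separate the directions. The grainyhead letters AACCGGTT were in 1 of the 529 windows and the androgen response element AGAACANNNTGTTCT in 0.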

How the data were processed

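Per the labels' protocols, ERα ChIP-seq libraries were sequenced as paired 75 bp reads. Per the submitters' processing notes, Bowtie2, SAMtools, Picard, bedtools and MACS2 were used with build hg38; for versions, a control library and thresholds: not given in the sources used here. The deposited lists hold, for each peak of a library, a fold enrichment (a ratio to local background), a −log10 p-value and a −log10 q-value by the authors. The deposited score was not used; in at least 99.6% of entries it equals the −log10 q-value times 10, cut to a whole number. Depth is known only through summit fragments and the local background.

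Summit fragments were recovered from fold and p with a Poisson model and a pseudocount of 1, with Python 3.11.15, numpy 2.4.6, pandas 2.3.3 and scipy 1.17.1, and the steps were tested on simulated data. Where a joined region held several peaks of a library, the one with most fragments was used. Ratios carry exact (Clopper-Pearson) intervals. There are no tests between conditions, since each has 1 library, and a call compares 2 libraries. Gene spans came from RefSeq (GRCh38.p14), which gives no strand or exons, and all 169 listed genes were matched. Named regions were the 12 higher and 12 lower with the interval bound (error level 0.001) farthest from 1, the 5 strongest in 1 list only, the strongest region near each estrogen target and called regions near listed genes. Other genes, windows and promoters in the text were chosen after their values were seen. The members and lists were chosen with earlier results of these data known. Motifs were searched in promoter windows and not around summits, because no genome was used here. The alternatives tried are given in the closing section. Some named regions are not reported here.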

Additional observations from a re-analysis of the deposited data

Results flagged for a closer look

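The region 22556 bp from TFAP2C, which encodes an AP-2 factor of luminal cells, was called higher in K303R without E2, with a centred ratio of 1.62, and had a ratio of 0.979 with E2. It is given because its direction differs between the 2 pairs of libraries, as it did at 30 of the 1493 higher and 28 of the 2224 lower regions; the difference was not tested, since each pair has 1 library per receptor. The X chromosome lay outside the regions compared and held 815 well-covered regions in both lists. Their median centred log2 ratio was −0.07, with 23 higher (2.82%) and 64 lower (7.85%).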

How the results depend on the processing

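No paired analysis was possible because each group has 1 library, and for the same reason no library could be left out. Among the alternatives, the scaling by the lowest local background, the scalings of the list medians, the settings without chromosomes 8 and 19 and the alternatives for gene density were chosen after seeing the data. The numbers of regions in both lists and in each list alone, and the shares of called regions with the same direction with E2, stayed within 1.5 times or within counting error. Of the called regions, 884 were higher with scaling by the median local background and 274 higher and 6933 lower with scaling by the lowest. A mean of at least 25 fragments gave 2538 higher, a mean of at least 100 gave 455 higher and 709 lower, a 2-fold limit 550 and 1324, and a 99% interval 2312 and 3415, since these change how many regions qualify. Since the 24 named regions were chosen for extreme ratios, their unturned directions show no stability; centring within 5 Mb windows took the log2 ratios of 2 CTNNA2 regions to −1.67 and −1.41 and that of LOC105377561 to −1.35. Dense minus sparse surroundings differed by 0.52 at a mean of at least 25 fragments, 0.32 at 100, and 0.0052 with summit fragments over local background; the cause was not tested. With summit fragments over local background the median log2 ratios were 0.0099 on chromosome 2, −0.0014 on 3, 0.00032 on 4, 0.013 on 5, 0.011 on 6, 0.0051 on 7, −0.052 on 8, −0.00999 on 9, −0.013 on 10, 0.00093 on 12, 0.0032 on 13, 0.018 on 15, 0.0032 on 16, −0.0015 on 17, 0.014 on 18, −0.0025 on 19 and 0.0028 on 22. Within 5 kb of a gene end lay 27.3% of higher and 5.73% of lower regions, the window being wider. With scaling by the median local background the list medians were 0.0297 for estrogen targets, 0.16 for luminal genes, −0.00014 for coregulators and 0.20 for tyrosine kinase genes. With scaling by the lowest local background they were −0.22 for estrogen targets, −0.21 for androgen and apocrine genes, −0.0886 for luminal genes, −0.25 for coregulators, −0.0529 for tyrosine kinase genes, −0.14 for basal genes and −0.23 for neuronal genes. Motif windows of 50 bp and 100 bp on each side of summits were not run, since no genome was used here. With 1 library per receptor, nothing here separates receptor, cell line and library, and the total depth is unknown.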
